A study of Homo sapiens with 11 samples.

Results

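The 5 genes examined were AXL, TYRO3 and MERTK, which encode the TAM family of receptor tyrosine kinases, and GAS6 and PROS1, which encode their ligands. They were chosen as a family by name, through the Ensembl identifiers of GENCODE release 29 symbols, and make up 5 of the 58721 genes in the count table. Their identifiers there are ENSG00000167601 for AXL, ENSG00000092445 for TYRO3, ENSG00000153208 for MERTK, ENSG00000183087 for GAS6 and ENSG00000184500 for PROS1. All 5 passed the filter on low counts and are among 23693 genes tested. The cells were A375, an established human melanoma line with an activating BRAF mutation, grown in medium with fetal bovine serum, which itself contains protein S. All libraries carry the genotype label WT. The parental group was 1 untreated library. The persister group was 5 cultures kept in 2 nM trametinib, an inhibitor of the MEK kinases, for 8 weeks, and the withdrawn group was 5 cultures taken 4 weeks after the drug was removed, and the labels tie each to 1 persister culture by number. Nothing in the labels tells whether persister cultures arose from independent selections. The p-values therefore reflect the spread among these libraries alone, and part of it may be technical.

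TAM receptors have immunoglobulin-like and fibronectin domains outside the cell and a kinase domain inside it. Their ligands GAS6 and protein S bridge the receptor to phosphatidylserine on dying cells or membrane fragments. The ligands bind that lipid through a Gla domain, whose glutamates must first be carboxylated by a vitamin K-dependent enzyme. GAS6 binds all members of the receptor family, and protein S is known as a ligand of TYRO3 and MERTK. In melanoma, high AXL is known as a mark of the undifferentiated, MITF-low state, and MERTK and TYRO3 have been described in pigmented melanoma cells.

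Total counts ranged from 56513920 to 82984566 per library. Levels are CPM, read counts relative to the scaled library size, given for cultures 1 to 5 in that order or as mean ± SD with n = 5. The drug target pathway moved with the labels: DUSP6, an ERK phosphatase and ERK target, stood at 168 CPM in parental, 24.8 ± 4.78 in persister and 186 ± 9.28 in withdrawn cells, and SPRY4, a feedback inhibitor, at 445, 17.2 ± 7.95 and 442 ± 60.7 CPM. MKI67, a proliferation marker added after its values were seen, separated the persister cultures. It stood at 154 and 45.4 CPM in persister 1 and 5, between 496 and 707 in the other 3, and at 865 CPM in parental cells. Of 7 melanocyte lineage markers, 6 were tested and moved both ways: 3 rose and 2 fell in persister cells. Over all genes tested, 16.1% rose and 15.1% fell at the same threshold, an adjusted p under 0.05. SOX10 fell from 635 to 51.9 CPM and S100B from 71.7 to 13.7, while the pigment genes DCT (2.94 to 424 CPM), MLANA (1.15 to 16.0) and PMEL (0.413 to 1.80) rose. MITF, the melanocyte master regulator, stood at 78.4 CPM in parental, 102 in persister (adjusted p = 0.219) and 138 in withdrawn cells. TYR, the tyrosinase gene, never had more than 7 counts in a library.

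The ligands rose in persister cells and the receptors did not pass the test. Over all genes tested, 31.2% were called between persister and parental cells at an adjusted p under 0.05, 16.1% higher and 15.1% lower. Of the 5 genes, GAS6 and PROS1 were called higher, and AXL, TYRO3 and MERTK were not called. The median log2 fold change of the 5 was 1.95, beside 0.09 over all genes tested. That median is the value of MERTK, which was not called and had 18 reads in the parental library. AXL stood at 0.41 and TYRO3 at -0.82. In bulk RNA, fewer cells that make a transcript and less transcript per cell cannot be told apart.

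**Figure D1:**
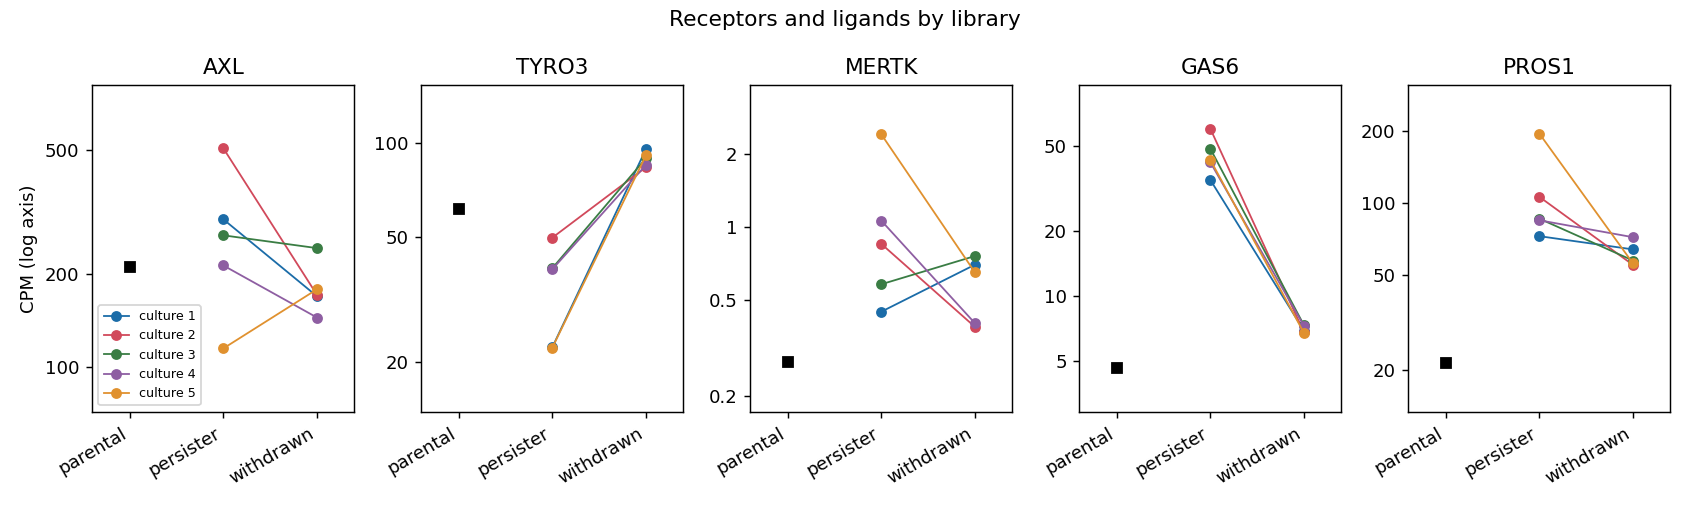
CPM of the 5 genes on log axes in the parental library (square) and in the persister and withdrawn libraries (circles, 1 colour per culture, joined by a line). GAS6 was higher in every persister library (34.8 to 60.1) than in any withdrawn library (6.73 to 7.31), TYRO3 was lower, and the lines of AXL and MERTK cross.

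AXL is the receptor best known from drug-tolerant melanoma, and lies on chromosome 19 (41219203 to 41261766, plus strand, GRCh38). It stood at 210.3 CPM in parental cells. In the persister cultures it stood at 299, 507, 266, 212 and 115 CPM. In the withdrawn cultures it stood at 169, 171, 242, 144 and 178 CPM. In all, 4 persister libraries were above the parental one, 1 of them by little, and persister 5 was below every withdrawn and parental library. The difference between persister (279.9 ± 145 CPM) and parental cells did not pass the test (log2 fold change 0.41 ± 0.57 (SE), adjusted p = 0.605), and without persister 2 its log2 fold change was 0.09. Withdrawn cells averaged 181 ± 36.3 CPM, with groups that overlapped (log2 fold change against persister -0.63 ± 0.32 (SE), adjusted p = 0.118). In 4 of 5 cultures AXL was lower after withdrawal, from 1.10-fold in culture 3 to 2.97-fold in culture 2, and in culture 5 it was 1.55-fold higher. Without persister 5 the fall after withdrawal passed the test (log2 fold change -0.83, adjusted p = 0.0139), and without persister 2 the value was -0.30. AXL had an SD of 0.781 in log2 CPM among persister cultures, and 21.3% of all genes tested had a larger one. Among withdrawn cultures its SD was 0.272.

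TYRO3, a receptor better known from the nervous system, lies on chromosome 15 (41557675 to 41583586, plus strand). It was lower in every persister library than in the parental and the withdrawn libraries. It stood at 61.3 CPM in parental cells and at 22.3, 49.8, 39.8, 39.5 and 22.2 CPM in the persister cultures. After withdrawal it stood at 95.5, 83.6, 89.3, 85.0 and 91.2 CPM. The rise after withdrawal, from 34.8 ± 12.1 to 88.9 ± 4.81 CPM, passed the test (2.56-fold, log2 fold change 1.36 ± 0.21 (SE), adjusted p = 2.49e-04). In that comparison 52.5% of all genes were called, 24.5% higher. Of the 5 genes, 1 was called higher (TYRO3) and 2 lower (GAS6 and PROS1). Each of the 5 cultures showed it, from 1.68-fold in culture 2 to 4.28-fold in culture 1. Cultures 1 and 5, lowest in TYRO3 while on drug, were also the lowest in MKI67, and the part of that in the result was not tested. Against the parental library the persister value missed the threshold (log2 fold change -0.82 ± 0.34 (SE), adjusted p = 0.0846). It passed without persister 2 (-0.98, adjusted p = 0.0222) and without persister 1 and 5 together (-0.51, adjusted p = 0.0134), an alternative added once the data had been seen. Persister 1 and 5 held the lowest TYRO3 values, so leaving them out also narrows the spread, and that pass is no further support.

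MERTK, the receptor by which macrophages and retinal pigment epithelium clear dying cells, lies on chromosome 2 (111898479 to 112029561, plus strand). It had few reads, 18 in the parental library and 22 to 176 in the others. It stood at 0.275 CPM in parental cells and at 0.445, 0.848, 0.578, 1.06 and 2.40 CPM in the persister cultures. All 5 persister libraries were above the parental one, yet the difference did not pass the test (log2 fold change 1.95 ± 0.88 (SE), adjusted p = 0.113). With DESeq2 it passed (adjusted p = 0.0439), and without persister 1 and 5 together it passed too (log2 fold change 1.59, adjusted p = 0.0471). The second alternative was added once the data had been seen. It leaves out the lowest and the highest persister value of MERTK, so that pass is no further support. After withdrawal MERTK stood at 0.697, 0.385, 0.756, 0.399 and 0.647 CPM, higher than on drug in 2 cultures and lower in 3 (log2 fold change -0.89 ± 0.43 (SE), adjusted p = 0.105). MERTK fell 2.20-fold in culture 2, 2.65-fold in culture 4 and 3.72-fold in culture 5, and rose 1.56-fold in culture 1 and 1.31-fold in culture 3. The size of the mean difference depended on persister 5. Without that library the value was -0.35 (adjusted p = 0.387), and without persister 1 it was -1.08 (adjusted p = 0.0462).

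GAS6 showed the clearest change of the 5 genes. It lies on chromosome 13 (113820549 to 113864067, minus strand) and is the ligand named after growth arrest, in which it was found. It stood at 4.64 CPM in parental cells. In the persister cultures it stood at 34.8, 60.1, 48.6, 42.0 and 43.1 CPM. In the withdrawn cultures it stood at 6.91, 6.78, 7.31, 7.27 and 6.73 CPM. No persister library overlapped with the other groups, and the withdrawn libraries lay close together, all above the parental one. GAS6 rose 9.86-fold in persister cells (log2 fold change 3.30 ± 0.29 (SE), adjusted p = 1.51e-05) and fell by 2.71 on the log2 scale after withdrawal (6.53-fold lower, SE 0.14, adjusted p = 7.84e-08). The fall ranged from 5.03-fold in culture 1 to 8.87-fold in culture 2. In this comparison 28% of all genes were called lower. In the persister cultures lowest in MKI67, 1 and 5, GAS6 stood at 34.8 and 43.1 CPM, and in the other 3 at 42.0 to 60.1 CPM, a difference that was not tested. Among persister cultures the SD of GAS6 was 0.291 in log2 CPM, below the median of 0.409 over all genes tested.

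The non-coding genes beside GAS6 moved with it. GAS6-DT starts 100 bases from GAS6 on the opposite strand and runs the other way. It had 5 reads in the parental library (0.0765 CPM) and stood at 3.93, 9.00, 2.83, 3.05 and 3.46 CPM in the persister cultures (log2 fold change 5.83 ± 1.20 (SE), adjusted p = 0.00412). After withdrawal it was at 0.0275 to 0.333 CPM, a log2 fold change of -4.68 ± 0.52 (SE) (adjusted p = 2.20e-05). GAS6-AS1, an antisense gene that shares 333 of the 2490 exon bases of GAS6, or 13.4%, stood at 3.76 CPM in parental cells. It rose to 24.5 ± 6.87 CPM in persister cells (adjusted p = 6.72e-04) and fell to 5.75 ± 1.10 CPM after withdrawal (adjusted p = 6.66e-06). Their order among cultures differed: persister 1 had the lowest GAS6 and the highest GAS6-AS1 (35.1 CPM), and persister 2 had the highest GAS6 and GAS6-DT. How the counting used strand is not given in the sources used here, so reads from the shared bases of GAS6 and GAS6-AS1 cannot be told apart.

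**Figure D2:**
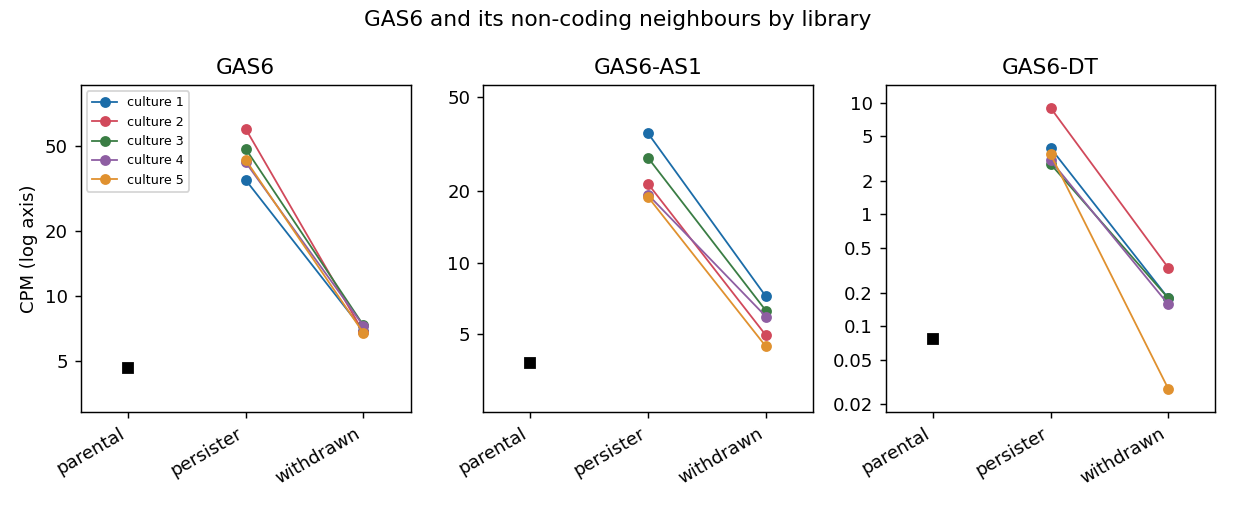
CPM of GAS6, its antisense gene GAS6-AS1 and the divergent GAS6-DT on log axes, with the parental library as a square and each culture as a line from its persister to its withdrawn library. In all 3 genes every persister library was above every withdrawn library and the parental one.

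The 250 bases before the start of GAS6 hold the start of GAS6-DT, and they are shown because these 2 genes moved together. The same stretch before the first RefSeq start of AXL, whose change did not pass the test, is set beside it. Both are RefSeq promoters of GRCh38.p14, written 5′ to 3′ on the strand of the gene, with matches to the GC box, the letters GGGCGG on either strand, in capitals.
GAS6, chr13:113864077-113864326, minus strand: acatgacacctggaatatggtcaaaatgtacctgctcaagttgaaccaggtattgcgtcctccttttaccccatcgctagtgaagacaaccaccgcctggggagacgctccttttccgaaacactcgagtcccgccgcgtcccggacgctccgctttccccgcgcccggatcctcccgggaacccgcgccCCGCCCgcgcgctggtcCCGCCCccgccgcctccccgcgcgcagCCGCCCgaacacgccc
AXL, chr19:41218973-41219222, plus strand: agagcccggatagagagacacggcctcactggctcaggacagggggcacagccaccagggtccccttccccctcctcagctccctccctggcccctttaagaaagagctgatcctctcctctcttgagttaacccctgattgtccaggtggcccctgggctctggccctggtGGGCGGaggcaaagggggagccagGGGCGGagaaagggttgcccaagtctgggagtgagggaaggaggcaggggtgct
The GAS6 stretch held 3 GC boxes and the AXL stretch 2, and 42.6% of 35116 RefSeq promoters of the same length held at least 1. Neither held the AP-1 letters TGANTCA (in 6.57% of promoters), the TEAD letters GGAATG (11.9%), the E-box CACGTG (6.34%), the ETS letters CCGGAAG (8.52%) or the SOX letters AACAATG (2.87%), searched on both strands. The stretch before a second annotated AXL start, not shown, held 1 match to the TEAD letters. A match is a run of letters and not a binding site. GENCODE 29 starts AXL before the RefSeq start used here, so 20 bases of the AXL stretch shown are untranslated exon there.

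PROS1 encodes protein S, a plasma anticoagulant that is also the other TAM ligand, and lies on chromosome 3 (93873033 to 93980003, minus strand). It stood at 21.3 CPM in parental cells. In the persister cultures it stood at 72.6, 106, 86.0, 84.7 and 195 CPM, and in the withdrawn cultures at 63.9, 55.0, 57.4, 71.9 and 55.8 CPM. The libraries of both groups lay above the parental one, and the persister libraries lay above the withdrawn ones, the closest by less than 1 CPM. PROS1 rose 5.11-fold in persister cells (log2 fold change 2.35 ± 0.50 (SE), adjusted p = 0.00526). In a fit of only the 6 persister and parental libraries it missed the threshold at nearly the same size (2.36, adjusted p = 0.0507). After withdrawal it fell by 0.84 on the log2 scale (SE 0.24, adjusted p = 0.0128), and by 0.52 without persister 5 (adjusted p = 0.00308). The fall was 3.50-fold in culture 5 and 1.14-fold in culture 1. Persister 5, with the highest PROS1 and MERTK, had the lowest AXL and MKI67, and the part of that culture's state in these values was not tested.

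**Figure D3:**
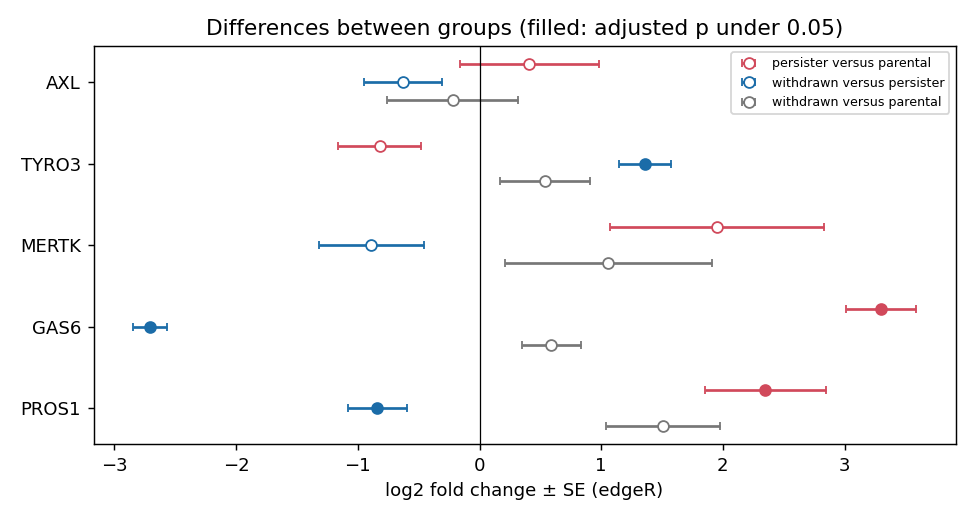
Log2 fold changes of the 5 genes with their SE in the 3 comparisons, from edgeR fits of all 11 libraries. Filled points passed the threshold: GAS6 and PROS1 between persister and parental cells, and TYRO3, GAS6 and PROS1 between withdrawn and persister cells.

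Against the parental library, withdrawn cells did not differ past the threshold in any of the 5 genes with edgeR, where 0.431% of all genes were called, 0.312% higher and 0.118% lower. At an unadjusted p under 0.05 there were 2, GAS6 and PROS1. DESeq2 called 1, PROS1 (adjusted p = 0.0192), and limma-voom 0. PROS1 stood at 60.8 ± 7.12 against 21.3 CPM (2.85-fold higher, log2 fold change 1.51 ± 0.47 (SE), adjusted p = 0.168). It passed without persister 5 (1.51, adjusted p = 0.0116), which alters only the shared spread, and in a fit of the 6 withdrawn and parental libraries (1.50, adjusted p = 2.99e-04). In that fit GAS6 (0.58, adjusted p = 0.00851) and TYRO3 (0.52, adjusted p = 4.36e-04) passed too, on the spread of the withdrawn libraries alone. The same fit called 3483 genes higher and 3110 lower over all genes, against 74 and 28 in the main fit, so these passes do not set the members apart. AXL stood at 181 ± 36.3 and 210.3 CPM (adjusted p = 0.891), and MERTK at 0.577 ± 0.173 and 0.275 CPM (adjusted p = 0.597). All 5 withdrawn libraries were above the parental one in TYRO3, MERTK, GAS6 and PROS1, and 1 of 5 was above it in AXL. Other named genes without a call did likewise: GGCX, NCSTN and CDKN1A had all 5 above it, and ADAM10 and CBL all 5 below. The share of all genes placed so was not counted, and 1 parental library gives no spread.

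To compare genes with each other, CPM were divided by the length of all annotated exons in kilobases. AXL was the most abundant receptor in every library. It stood at 43.0 CPM per kb in parental cells, beside 6.81 for TYRO3 and 0.0627 for MERTK. The share of AXL in the summed level of the 3 receptors was 86.2% in parental cells. It was 96.0%, 94.8%, 92.3%, 90.4% and 88.6% in the persister cultures and 76.2%, 78.8%, 83.0%, 75.6% and 78.0% in the withdrawn cultures. No persister library overlapped with a withdrawn one, and the parental library lay between the groups. The mean share was 92.4% ± 3.04 in persister and 78.3% ± 2.94 in withdrawn cells, a difference of -14.1 percentage points (exact two-sided permutation test, p = 0.00794, the smallest that 5 against 5 can give). Taken over the 5 culture pairs, all of which fell, an exact sign-flip test gave p = 0.0625, the smallest that 5 pairs can give. The share joins the levels of AXL and TYRO3 and is no test of AXL alone. TYRO3 was called higher after withdrawal, while AXL was not called and was 1.55-fold higher after withdrawal in culture 5. The level of AXL was 15.0 ± 6.55 times that of TYRO3 per kb in persister and 3.74 ± 0.738 times in withdrawn cells. With the shorter annotated transcript as the length of TYRO3 and the longest as that of AXL and MERTK, also added once the data had been seen, the shares of AXL were 73.6% in parental, 85.1% ± 5.21 in persister and 61.9% ± 4.20 in withdrawn cells.

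The ligands differed in their balance. PROS1 was above GAS6 per kb in all 11 libraries, by 2.84 times in parental cells, by 1.29, 1.09, 1.09, 1.24 and 2.80 times in the persister cultures and by 4.84 to 6.10 times in the withdrawn cultures. GAS6 made up 26.1% of the summed ligand level in parental, 42.1% ± 8.99 in persister and 15.8% ± 1.28 in withdrawn cells. In persister 5 it was 26.3%, and in the other persister cultures 43.7% to 47.9%. The groups of persister and withdrawn libraries did not overlap in this share, a description that was not tested.

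**Figure D4:**
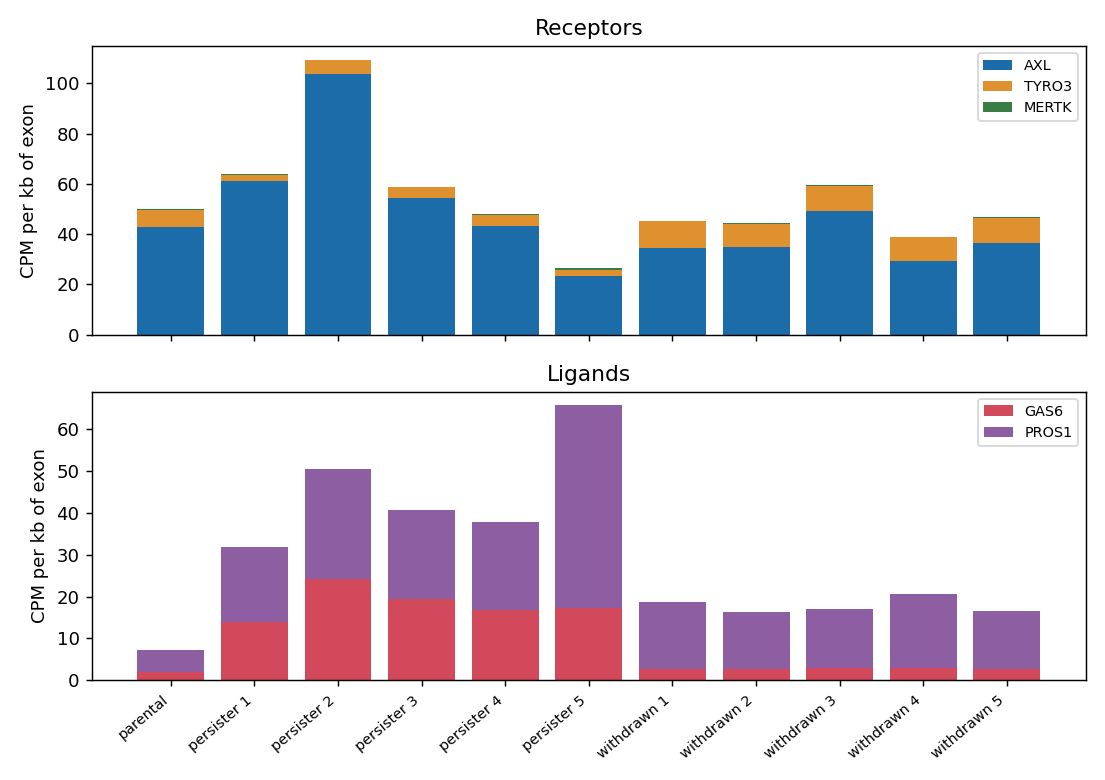
CPM per kilobase of exon in each library, stacked for the 3 receptors (top) and the 2 ligands (bottom), on axes from 0. AXL makes up most of every receptor bar, MERTK is too low to see in most, and the ligand bars are tallest in the persister libraries.

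The gene pairs that share sequence were checked for their reads. TYRO3P, a pseudogene of TYRO3, held 5 to 21 reads per library, or 0.184% to 1.04% of the reads of TYRO3. PROS2P, a pseudogene of PROS1, held 7 to 62 reads, or 0.162% to 0.789% of those of PROS1. How many reads of these genes were lost because they match both copies is not known. AXL shares 67 exon bases (1.37%) with an antisense gene, and TYRO3, MERTK and PROS1 share exon bases with no other gene.

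Genes that act with the receptors or ligands were taken from 7 lists with 83 genes, of which 72 were tested. Between persister and parental cells 12 were higher and 19 lower, together 43.1%, beside 31.2% over all genes tested. Between withdrawn and persister cells 27 were higher and 20 lower, together 65.3%, beside 52.5% over all genes. The counts of the single lists are to be read against these shares. Against the parental library withdrawn cells had 0 of 72 called with edgeR and with limma-voom, 4 with DESeq2 and 14 at an unadjusted p under 0.05. A fit of only the withdrawn and parental libraries called 26 of 72, beside 3483 genes higher and 3110 lower over all genes.

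Of 8 tested genes of the vitamin K carboxylation list, 3 rose in persister cells: GGCX, the vitamin K-dependent carboxylase, from 39.5 to 68.7 ± 10.7 CPM (adjusted p = 0.00879), VKORC1, which recycles vitamin K, from 14.6 to 22.4 ± 2.02 CPM (adjusted p = 0.0132), and MGP, another Gla protein and no enzyme, from 8.37 to 232 ± 134 CPM (adjusted p = 0.00197). After withdrawal 3 of 8 fell, GGCX to 42.0 ± 2.00 CPM (adjusted p = 1.57e-04), MGP to 25.7 ± 8.36 CPM and F10, a clotting factor gene near the detection limit. VKORC1 stood at 20.2 ± 1.20 CPM after withdrawal (adjusted p = 0.187). In the fit of only the 6 persister and parental libraries, GGCX (adjusted p = 0.0921) and VKORC1 (0.117) lost their calls. The median log2 fold change of the list was 0.24 in persister cells, beside 0.09 over all genes. Of the other proposed TAM ligands, LGALS3, which encodes galectin-3, rose from 41.4 to 94.3 ± 22.8 CPM (adjusted p = 0.00782, and 0.0643 in that fit).

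In the receptor shedding list 2 of 7 genes were called in persister cells, a share near that of all genes. ADAM10, a protease that sheds surface receptors, fell from 359 to 163 ± 25.8 CPM in persister cells (adjusted p = 5.21e-04) and rose to 299.8 ± 10.2 CPM after withdrawal (adjusted p = 3.34e-05). NCSTN, a subunit of gamma-secretase, rose from 135 to 356 ± 60.8 CPM (adjusted p = 7.93e-04) and fell to 164 ± 9.63 CPM. After withdrawal 2 of the 7 rose and 4 fell. Over all genes 15.1% were lower and 31.2% were called either way. Of 9 tested genes that place phosphatidylserine in the membrane, 3 fell in persister cells and 0 rose. Among them were the flippase genes ATP11A and ATP11B, whose products return it to the inner leaflet. ATP11A fell from 105 to 46.0 ± 4.82 CPM and ATP11B from 126 to 58.5 ± 4.21 CPM (adjusted p = 1.72e-04 and 3.95e-05). After withdrawal 5 of 9 rose, ATP11A and ATP11B among them, and 2 fell. The median of the list was -0.48 in persister cells and 0.56 after withdrawal.

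Among 23 adaptors and signalling genes, 8 fell and 2 rose in persister cells, with a median log2 fold change of -0.16. CBL, a ubiquitin ligase that sends active receptors to degradation, fell from 173 to 55.6 ± 12.7 CPM (adjusted p = 2.08e-04), and ELMO1, an engulfment adaptor, from 91.6 to 25.3 ± 5.92 CPM (adjusted p = 1.33e-04). VAV3, a guanine nucleotide exchange factor, went from 1.68 CPM to 169 ± 50.6 CPM, a rise of 6.65 ± 0.82 (SE) in log2 units (adjusted p = 2.33e-04). After withdrawal 11 rose and 5 fell, and CBL stood at 138 ± 4.66, ELMO1 at 92.1 ± 3.50 and VAV3 at 3.36 ± 1.27 CPM. Of 10 tested genes of other bridging and phagocytosis receptors, 3 rose and 2 fell in persister cells. The integrin gene ITGB3 fell from 219 to 24.3 ± 8.69 CPM (adjusted p = 4.20e-05), while ITGB5 rose from 165 to 387 ± 60.8 CPM (adjusted p = 0.00187). CALR, calreticulin, rose from 1057 to 1839.9 ± 198 CPM (adjusted p = 0.00451, and 0.0821 in the fit of 6 libraries). After withdrawal 2 of the 10 rose and 4 fell, MEGF10, an engulfment receptor, from 9.63 ± 4.19 to 0.953 ± 0.521 CPM (adjusted p = 5.96e-05).

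Of 13 transcription factors reported to act on AXL, 5 fell and 2 rose in persister cells, while AXL itself was not called. WWTR1, which encodes TAZ, fell from 1270.5 to 349.7 ± 37.2 CPM (adjusted p = 7.41e-06) and SP1, a GC box-binding factor, from 212 to 119 ± 15.5 CPM (adjusted p = 0.00168). JUN, an AP-1 subunit, rose from 16.7 to 92.6 ± 26.1 CPM (adjusted p = 0.00428), and EPAS1, which encodes HIF-2 alpha, from 3.26 to 98.96 ± 59.8 CPM (adjusted p = 0.00108). After withdrawal 7 rose and 2 fell, and these 4 stood at 1374, 218, 12.0 and 9.83 CPM.

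**Figure D5:**
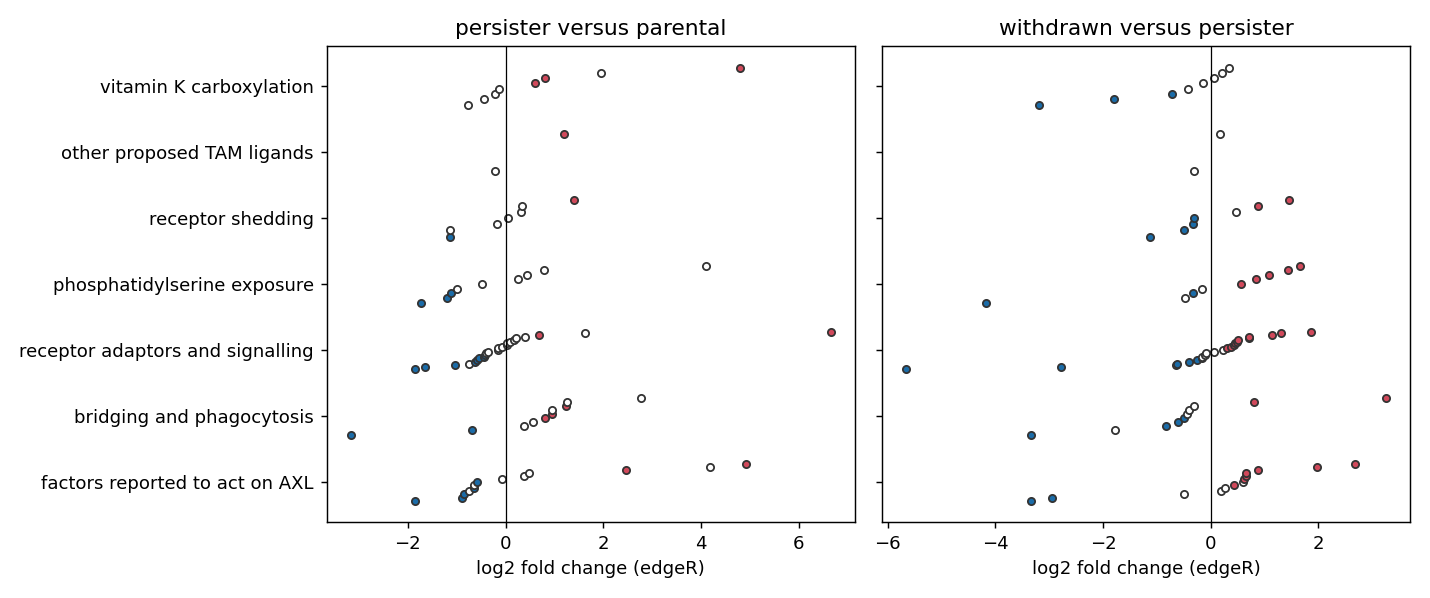
Log2 fold changes of the 72 tested genes of the 7 lists between persister and parental cells (left) and between withdrawn and persister cells (right), 1 point a gene. Filled points passed the threshold (red higher, blue lower), 31 of 72 on the left and 47 of 72 on the right.

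The genes whose profile over the 11 libraries was most like each member were searched among 9788 protein-coding genes, by the root mean square difference of centred log2 CPM. All libraries share their scaling, and the groups set most of each profile. For GAS6 they were CCDC80, CDKN1A and HS3ST3B1, at 0.235, 0.272 and 0.311, beside a spread of 1.40 for GAS6 about its own mean. CDKN1A encodes the cell cycle inhibitor p21 and CCDC80 a matrix protein. For PROS1 they were NNMT, PCDHB7 and MAGI2 (0.231, 0.245 and 0.254, beside 0.738), and for TYRO3 GAS2L3, TBC1D1 and CXorf38 (0.172, 0.172 and 0.177, beside 0.756). For AXL they were CCDC86, COTL1 and PPARG (0.222, 0.230 and 0.237, beside 0.551). All 3 were also not called in any comparison, a pattern they share with AXL by choice. For MERTK they were PCDHB10, THBS3 and CFI (0.344, 0.396 and 0.409, beside 0.775). MERTK itself lies below the level searched, so genes as low as MERTK were not compared with it.

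Markers of other cell types were read beside these results, since fibroblasts, endothelial cells and macrophages also make TAM genes. Of 8 fibroblast markers 6 rose in persister cells, PDGFRA fell and COL1A1 was not called (adjusted p = 0.208). After withdrawal 7 fell and PDGFRA rose. Over all genes tested, 16.1% were called higher and 15.1% lower in persister cells, and 24.5% higher and 28% lower after withdrawal. The summed level of the 8 fibroblast markers was 8.78 CPM in parental, 70.1 to 354 in persister and 21.2 to 32.2 in withdrawn libraries. Most of it in persister cells was LUM, at 172 CPM on average. FAP, a fibroblast surface protease, averaged 0.903 CPM in parental, 27.4 in persister and 15.4 in withdrawn cells, and was called higher in withdrawn than in parental cells (adjusted p = 0.0393). The collagen genes COL1A1, COL1A2 and COL3A1, abundant in fibroblasts, averaged 3.86, 1.32 and 6.83 CPM in persister cells. The 6 markers that rose in persister cells also fell after withdrawal, as GAS6 and PROS1 did, and their part in the result was not tested. The 10 macrophage and leukocyte markers summed to 7.59 CPM in parental, 1.35 to 1.82 in persister and 4.00 to 5.38 in withdrawn libraries. Of 5 tested, 1 was called higher and 1 lower in persister cells, and 1 higher and 3 lower after withdrawal. LYZ, the lysozyme gene, carried the sum in parental and withdrawn cells, at 6.79 and 4.09 CPM, and averaged 0.169 in persister cells. It was called lower in persister cells (adjusted p = 7.49e-06) and higher after withdrawal (adjusted p = 9.58e-07). PTPRC, which marks leukocytes, had at most 39 reads, yet was called higher in persister cells (adjusted p = 0.0416) and lower after withdrawal (adjusted p = 8.53e-04). The macrophage genes MRC1 and CSF1R, with at most 19 and 69 reads, were called lower after withdrawal too (adjusted p = 0.00375 and 0.0245). The part of these few reads in the values of MERTK was not tested. The 6 endothelial markers summed to 18.2, 4.98 to 22.2 and 16.5 to 27.4 CPM, mostly KDR. Of 5 tested, 2 were called higher and 2 lower in persister cells, and 3 higher and 2 lower after withdrawal. TEK and CDH5, at 3.20 and 0.418 CPM on average in persister cells, rose there and fell after withdrawal. PECAM1 and VWF, at 0.108 and 0.129 CPM on average in persister cells, went the other way in both comparisons. KDR rose after withdrawal and was not called in persister cells. The 6 keratinocyte and epithelial markers summed to at most 5.54 CPM, with KRT1 at 0 in all.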

How the data were processed

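Poly(A) RNA of 11 libraries was analysed from read counts per gene, which the authors deposited as 1 table of whole numbers without normalization or pooling. Per the submitters' processing notes, the tools were bcl2fastq, HISAT2 and HTSeq, and the genome build was hg38. Tool versions, strand handling and gene annotation: not given in the sources used here. Per the labels' protocols, libraries were made with a stranded mRNA kit. All 58721 identifiers matched the GENCODE 29 basic set, and 18024 genes had 0 counts throughout.

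The main test was edgeR's quasi-likelihood test (edgeR 4.0.16, R 4.3.3). Low genes were removed by filterByExpr at a count of 10 and a total of 15, and TMM gave the scaling. The model held all 11 libraries in 3 groups (8 residual degrees of freedom), with Benjamini-Hochberg adjustment over 23693 genes at a threshold of 0.05. The parental group has 1 library and was taken to vary like the others. CPM use the TMM-scaled library sizes, and log2 CPM a prior count of 2. DESeq2 1.42.0 and limma 3.58.1 (voom) were alternatives, with other scalings and filters, fewer libraries and the culture number as a block. The scripts were tested on simulated data. The labels of withdrawn samples cite the numbered persister culture they came from, and this pairs the samples. Across genes, libraries of 1 culture deviated from their group means with correlations of only 0.0484 to 0.0909, yet for each of the 5 persister libraries the highest correlation was with its own number.

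Named are the 5 genes, up to 3 genes of each list with the smallest adjusted p in each comparison with persister cells, the 3 genes most like each member, near copies and neighbours, DUSP6, SPRY4 and cell type markers; a gene that this rule names is not reported here. The members and lists were chosen with earlier results of these data known. Promoters are from RefSeq on GRCh38.p14, matched by symbol for 5 of 5 genes.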

Additional observations from a re-analysis of the deposited data

Results flagged for a closer look

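The sets checked were each named gene except the cell type markers, and the share of AXL, in persister and in withdrawn cells. Among these 100 sets of 5 libraries, 12 held a library that stood far from the other 4, with a gap over 0.71 of the whole range. Chance alone flags about 1 in 20 such sets. Of the 12, 6 were the highest value in persister 5. PROS1 stood at 195 CPM there, against 72.6 to 106 in the others, and EPAS1 at 204 against 57.4 to 91.4. PCDHB10 stood at 40.1 CPM, CFI at 63.2, NNMT at 318 and PCDHB7 at 35.3 in persister 5, where the others reached at most 16.2, 24.6, 156 and 22.1. These 4 genes were named for their likeness to MERTK or PROS1 and so share that pattern by choice.

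In persister 2, GAS6-DT stood at 9.00 CPM (2.83 to 3.93 in the others) and DUSP6 at 33.1 CPM (21.2 to 23.9). MGP stood at 468 CPM in persister 1 (141 to 197 in the others), and ATP11B at 66.0 CPM in persister 4 (55.9 to 57.2). In withdrawn cells NCSTN was low in culture 2, at 147 CPM (165 to 171), and PCDHB7 in culture 3, at 10.9 CPM (13.3 to 14.1).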

How the results depend on the processing

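GAS6 kept its direction and its call in both comparisons with persister cells under every alternative run, with log2 fold changes of 3.18 to 3.44 and -2.85 to -2.59, and so did TYRO3 (1.04 to 1.52) and PROS1 (-0.96 to -0.52) after withdrawal. The other results of the 5 genes, as log2 fold changes, kept their direction, but some changed their side of the threshold. With libraries left out in turn, AXL between withdrawn and persister cells ranged from -0.83 to -0.30 and MERTK from -1.08 to -0.35, TYRO3 between persister and parental cells from -0.98 to -0.69, and PROS1 between withdrawn and parental cells from 1.44 to 1.54. With DESeq2, MERTK in persister cells (1.95) and PROS1 in withdrawn against parental cells (1.49) passed. With only the 2 groups compared, PROS1 in persister cells (2.36) missed the threshold, and TYRO3 (0.52), GAS6 (0.58) and PROS1 (1.50) passed between withdrawn and parental cells. An alternative without persister 1 and 5 together was added once the data had been seen. Those libraries included the lowest TYRO3 and AXL values on drug and the lowest and highest MERTK values, so its passes are no further support. In it TYRO3 (-0.51) and MERTK (1.59) passed in persister cells, AXL (-0.86) after withdrawal, and TYRO3 (0.54) and PROS1 (1.51) between withdrawn and parental cells. Apart from the smaller fits, the cause was not tested.

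With the culture number as a replicate block, no call of the 5 genes changed: AXL stood at -0.51, MERTK at -0.72, TYRO3 at 1.41, GAS6 at -2.70 and PROS1 at -0.76. In pairs the share of AXL differed by -14.1 points (exact sign-flip test, p = 0.0625), and without 1 culture in turn by -15.3 to -12.6 points (exact permutation test).

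Counts over all genes moved most between withdrawn and parental cells, from 74 higher and 28 lower to 773 and 383 with DESeq2, 3483 and 3110 with only the 2 groups compared, and 1241 and 845 without persister 1 and 5 together. They were 19 to 374 higher and 4 to 184 lower with libraries left out in turn. There were 51 lower with limma-voom and 49 lower with at least 10 counts in 5 libraries. Between persister and parental cells the 2 groups alone gave 1354 higher and 1215 lower, against 3819 and 3572. These counts rest on 1 parental library.

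The other named genes, without the cell type markers, had 2418 values under alternatives. Of these, 2307 kept direction and side, 29 lost and 68 gained a call. The other 14 turned direction near 0, all without a call, in 6 genes. Between withdrawn and parental cells ELMO1 turned (-0.02 with RLE or upper-quartile scaling, -0.01 with DESeq2, the stricter filter or the 2 groups alone, and -0.01 to 0.02 with libraries left out in turn). With libraries left out in turn SPRY4 ranged from -0.09 to 0.04, PROS2P from -0.17 to 0.09 and F10 from -0.14 to 0.31 there, and between persister and parental cells CCDC86 ranged from -0.02 to 0.43 and PPARG from -0.04 to 0.26. Reads that match 2 gene copies and the strand of overlapping genes limit what these counts can separate, and MERTK rests on 18 to 176 reads a library.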
